A study of Mus musculus with 8 samples.

Results

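The collagen genes were followed in 2 immortalized mouse dental papilla cell lines that differ in Bmp2, which encodes bone morphogenetic protein 2. A gene was a member when its symbol consisted of Col, a number, the letter a and a number, which names one collagen chain. The rule found 43 members among the 22609 gene symbols, and the members were grouped by collagen type and by the structure their chains build. The iBmp2 fx/fx line (fx/fx) carries floxed Bmp2 alleles and the iBmp2 ko/ko line (ko/ko) carries the Bmp2 knock-out, and both lines are immortalized. Total RNA was sequenced from 1 library per genotype at 6, 24, 48 and 72 h of culture, which gave 4 libraries per genotype. Each genotype is represented by 1 line, so that genotype and line cannot be told apart, and whether a line is 1 clone was not given in the sources used here. No agent or treatment is named in the labels of the libraries, and the series' own design text names 8 h where the labels name 6 h. The genotypes were compared over the 6 libraries of 6, 48 and 72 h, and the 24 h libraries are given apart. With 1 library at each time, libraries of different times stood in for replicates, and p-values measure only the spread among them.

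Collagens are secreted proteins whose chains wind around each other into a helix. Fibrillar collagens of types I, III and V form the fibrils of most connective tissues, and type I collagen is the main protein of the dentin matrix that odontoblasts, the descendants of dental papilla cells, lay down. Type IV collagen builds the sheet-like network of basement membranes, type VI forms beaded microfibrils around cells, type VII forms anchoring fibrils, and types VIII and X form hexagonal networks. Fibril-associated collagens such as type XII bind to the surface of fibrils, multiplexins lie in basement membrane zones, and transmembrane collagens span the cell membrane.

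The libraries held 25890110 to 32415665 reads counted on genes, and the level of 3 counts, taken as the smallest that can be told from 0, was 0.0929 to 0.124 CPM (counts per 1000000 gene reads, with TMM normalization factors). Such floors cover counting error only. Bmp2 was at 1 read in the fx/fx library of 24 h and at 0 reads in the other libraries, so it could not check the labels. Of 14 markers of dental mesenchyme and odontoblasts, 8 exceeded 3 counts in every library, whereas Barx1, Lhx8, Dspp and Ibsp were at or under 3 counts in all 8. The summed level of the 14 was 204 to 306 CPM in the fx/fx and 143 to 193 CPM in the ko/ko libraries of the main comparison. Single genes differed in this: Alpl was at 12.6 to 61.7 and 0.551 to 1.45 CPM. Pax9 went the other way, at 1.91 to 2.26 and 2.62 to 3.53 CPM. Of the 8 epithelial markers, Krt5, Amelx, Ambn and Enam were at or under 3 counts in all 8 libraries, and the summed level was 1.01 to 2.20 CPM in the fx/fx and 0.330 to 0.884 CPM in the ko/ko libraries. The 4 cartilage markers, of which Acan was at or under 3 counts throughout, summed to 29.7 to 46.9 and 19.5 to 29.2 CPM, and the 4 endothelial markers, none of them at or under 3 counts throughout, to 1.93 to 3.32 and 1.61 to 3.63 CPM. For 4 blood and immune markers (Ptprc and Emr1 at or under 3 counts throughout) the sums were 4.19 to 14.2 and 2.78 to 3.37 CPM, for 4 glial and neuronal markers (Sox10 likewise) 20.9 to 43.1 and 44.5 to 61.6 CPM, and for 3 skeletal muscle markers (Myog likewise) 7.55 to 13.4 and 3.55 to 5.17 CPM. Several of these sums came mostly from a single gene in each library of the main comparison and describe mainly that gene. Sox9 gave 29.2 to 46.4 and 18.9 to 28.5 CPM of the cartilage sums. Tubb3 gave 19.6 to 41.9 and 41.7 to 60.1 CPM of the glial and neuronal sums. Cd68 gave 3.14 to 12.3 and 2.27 to 2.79 CPM of the blood and immune sums, and Des was the main muscle gene. The part of the marker sets in the collagen values was not tested. Fewer cells of a type cannot be told apart from less RNA per cell in such libraries. The library labelled ko/ko at 24 h stood apart: over 10939 genes its log2 ratio to the fx/fx library of 6 h had an SD of 0.116, against 0.597 to 0.818 to the ko/ko libraries of the other times. The next closest of the 28 pairs of libraries, fx/fx at 24 and 48 h, had an SD of 0.296. The genotype of that library is therefore uncertain, and so is what its values and the fits of all 8 libraries show of the ko/ko cells.

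Most collagen RNA came from a few chains, while many members were near or below detection. Levels were compared between genes as RPKM (CPM per kilobase of annotated exon), averaged over the 6 libraries. Of the 43 members, 5 reached 100 RPKM, 14 reached 10 RPKM and 19 reached 1 RPKM, and these counts were the same with the longest annotated transcript as the length. Col1a1, the alpha 1 chain of type I collagen, led with a mean of 542.0 RPKM and a range of 442.4 to 719.1 RPKM. It was followed by Col1a2 (282.6 RPKM), Col3a1 (216.6), Col6a1 (175.2) and Col5a2 (162.7 RPKM). The order of Col1a1 and Col1a2 depended on the length used, since Col1a2 averaged 641.9 and Col1a1 599.9 RPKM with the longest transcript. The order of Col3a1, Col6a1 and Col5a2 depended on the genotype. Col3a1 exceeded both others in the 3 ko/ko libraries of 6, 48 and 72 h, at 223.2 to 428.2 RPKM, and was below Col5a2 in all 4 fx/fx libraries, at 107.2 to 138.9 RPKM. Col6a1 exceeded Col5a2 in 3 of 8 libraries.

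Below these, Col4a1 and Col4a2 of basement membranes averaged 65.84 and 51.48 RPKM, and Col4a1 exceeded Col4a2 in 8 of 8 libraries. Col5a1, Col12a1, Col8a1, Col16a1, Col6a2, Col4a5 and Col6a3 followed between 44.8 and 25.3 RPKM, and neighbours among them changed places from library to library. Col18a1, Col7a1, Col4a6, Col10a1 and Col9a3 lay between 6.99 and 1.05 RPKM. The remaining 24 members were under 1 RPKM, from Col8a2 at 0.717 RPKM down to Col9a1 and Col13a1, which had 0 reads in every library. Where the exons of a gene were counted, a count of 0 allows a level of up to 0.0929 to 0.124 CPM. The annotation of the counting is not given, and Mia3, a collagen-processing gene examined below, was also at 0 reads in every library. Whether these chains were under that level or were not counted cannot be told apart. After the filter on low counts, 32 members could be tested for genotype. The 11 that did not pass were Col4a4, Col6a5, Col6a6, Col9a1, Col9a2, Col13a1, Col19a1, Col22a1, Col24a1, Col25a1 and Col28a1, whose highest count in any library was 19.

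**Figure D1:**
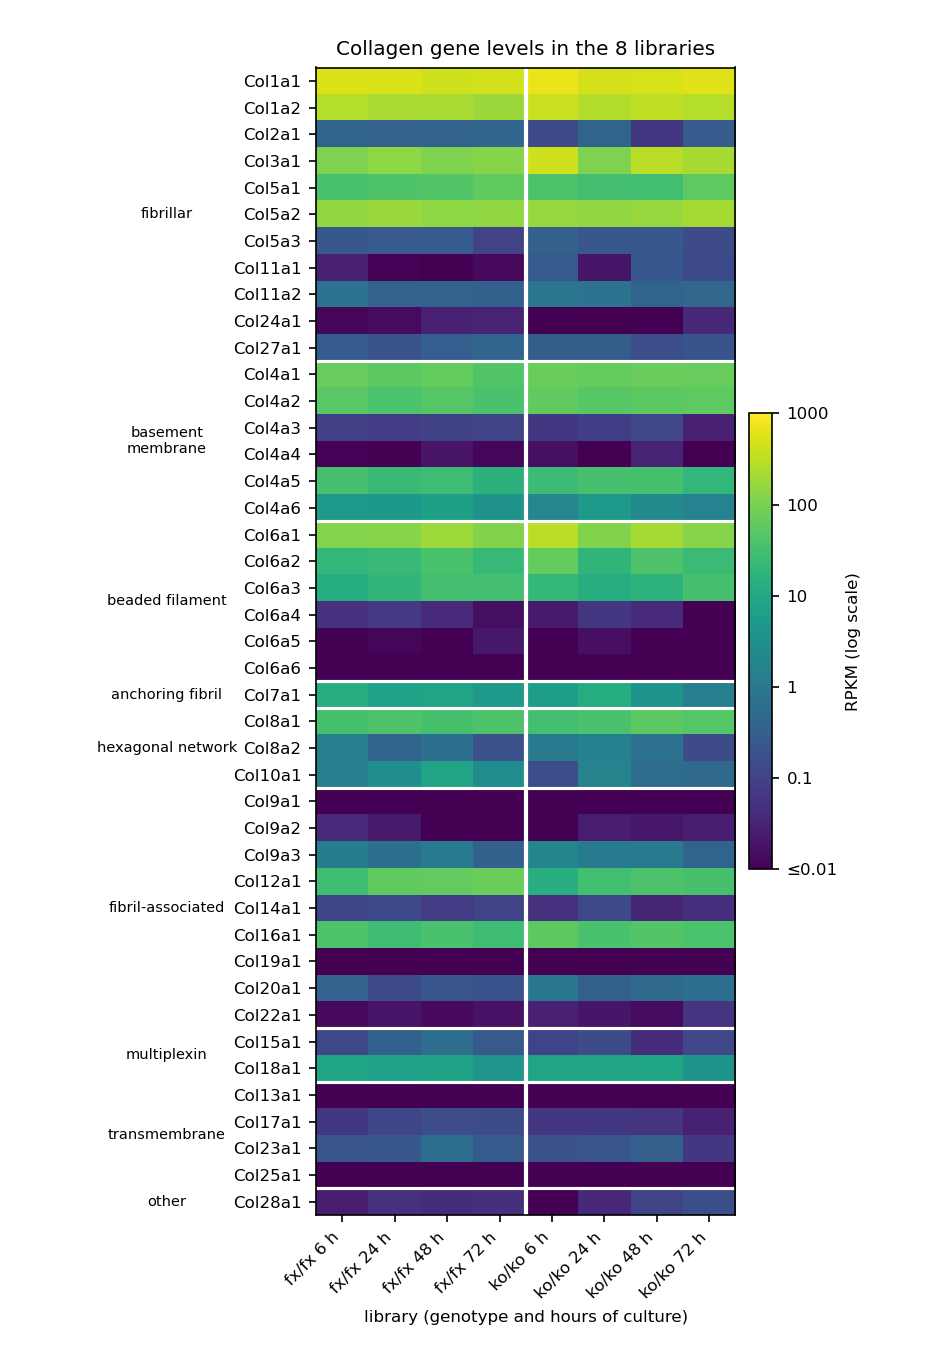
Level of the 43 collagen genes in each library as RPKM on a log colour scale, with genes in rows grouped by structure and libraries in columns by genotype and hours of culture. The rows of Col1a1, Col1a2, Col3a1, Col5a2 and Col6a1 are brightest, and Col9a1 and Col13a1 have no reads in any column.

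The ko/ko libraries of 6, 48 and 72 h gave more of their reads to collagen genes. Collagen genes took 1.303, 1.267, 1.233 and 1.121% of the gene reads in the fx/fx cells at 6, 24, 48 and 72 h. In the ko/ko cells they took 2.004, 1.580 and 1.391% at 6, 48 and 72 h, and 1.236% in the library labelled 24 h. Over the 6 libraries of the main comparison the share was 1.219% ± 0.0918 (SD, n = 3) in the fx/fx and 1.658% ± 0.314 (SD, n = 3) in the ko/ko cells, and the groups did not overlap. The share was highest at 6 h and lowest at 72 h in both lines among these 6 libraries.

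Type I collagen, which forms the thick fibrils of dentin and bone, was the largest part everywhere, at 44.5 to 55.1% of collagen reads. Type III collagen, which forms thinner fibrils with type I, took 7.20, 9.16, 7.26 and 8.93% of collagen reads in the fx/fx cells at 6, 24, 48 and 72 h. It took 18.65, 16.6 and 12.6% in the ko/ko libraries of 6, 48 and 72 h, and 7.57% in the one labelled 24 h. Type XII collagen showed the opposite order at each of 6, 48 and 72 h. It took 3.52, 7.35, 7.86 and 9.87% in the fx/fx cells against 1.10, 3.96 and 3.62% in the ko/ko libraries of 6, 48 and 72 h and 3.80% in that of 24 h. Unlike for type III, the groups overlapped, since the ko/ko libraries of 48 and 72 h were above the fx/fx library of 6 h. Type V held 9.90 to 17.0%, type VI 6.60 to 12.1% and type IV 5.73 to 8.84% of collagen reads over the 8 libraries.

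**Figure D2:**
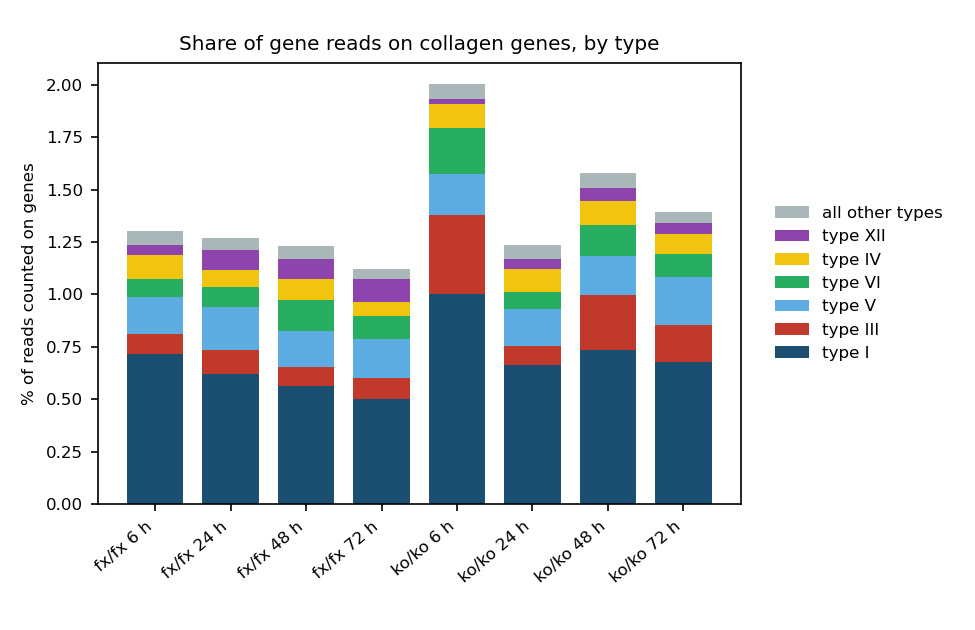
Share of the reads counted on genes that fell on collagen genes, in percent, as 1 stacked bar per library divided by collagen type. The ko/ko bars of 6, 48 and 72 h (2.004, 1.580 and 1.391%) are taller than all fx/fx bars (1.121 to 1.303%) and have a wider band of type III, while the bar labelled ko/ko 24 h (1.236%) is not.

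To determine which chains differed between the genotypes, the counts were tested with edgeR's quasi-likelihood test. In the ko/ko cells the fibrillar chains Col3a1 and Col11a1 and the fibril-associated chain Col20a1 were higher, and Col10a1, Col15a1, Col2a1, Col4a6, Col17a1 and Col14a1 were lower, at an absolute log2 fold change above 1 and an unadjusted p under 0.05. The main fibril chains Col1a1 and Col1a2, the basement membrane chains Col4a1 and Col4a2 and the type VI chains did not pass. These 9 calls were 28.1% of the 32 members tested, where 7.35% of all 13121 genes tested were called, 3.31% higher and 4.04% lower in the ko/ko cells. Over all 32 members, 17 had a higher and 15 a lower level, and the median log2 fold change was 0.06 against 0.03 over all genes tested. The 3 ko/ko and 3 fx/fx libraries did not overlap for 10 of the 32 members (31.2%), against 20.0% of all genes tested. Of these 10, 5 were higher and 5 lower, against 9.92% and 10.1% of all genes.

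After Benjamini-Hochberg adjustment over all genes tested, 1 member, Col11a1, reached an adjusted p of 0.05 with a log2 fold change of at least 1, where 2.19% of all genes did so, 0.899% higher and 1.29% lower. This call was lost when any 1 of the libraries was left out except that of the ko/ko cells at 72 h. Without the latter, Col11a1 and Col3a1 were called. Col11a1 entered the test through its ko/ko libraries (77, 67 and 31 reads), as its fx/fx libraries had 9, 2 and 4 reads. A stricter filter, which dropped each gene under 10 reads in any library, removed Col11a1. Of the 25 members left, 0 passed the adjusted and 5 the unadjusted limit, against 1.18% and 5.49% of all genes. The 2 libraries of a time shared deviations, and with culture time as a block 7 of the 32 members (21.9%) passed the same limit in edgeR's test, against 8.45% of all genes, 3.78% higher and 4.67% lower. These were Col3a1, Col11a1 and Col20a1, which were higher, and Col10a1, Col2a1, Col4a6 and Col7a1, which were lower. The fit with the block leaves few residual degrees of freedom, a limit that holds for all its p-values given here. With the 24 h libraries included, 0 members passed the adjusted limit, as did 0% of all genes, and 5 passed the unadjusted one, against 3.55%. At the unadjusted limit the count was 5 to 8 with any 1 of the 6 libraries left out, against 5.87 to 10% of all genes, and the 5, reached without the ko/ko library of 48 h (7.13% of all genes), were Col3a1, Col10a1, Col11a1, Col20a1 and Col4a6. By chromosome, the median log2 fold change of all tested genes ranged from -0.39 on chromosome 3, which holds Col11a1, to 0.37 on chromosome 19, which holds Col17a1, and was 0.30 on chromosome 10 with Col10a1, and its part in these values was not tested.

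**Figure D3:**
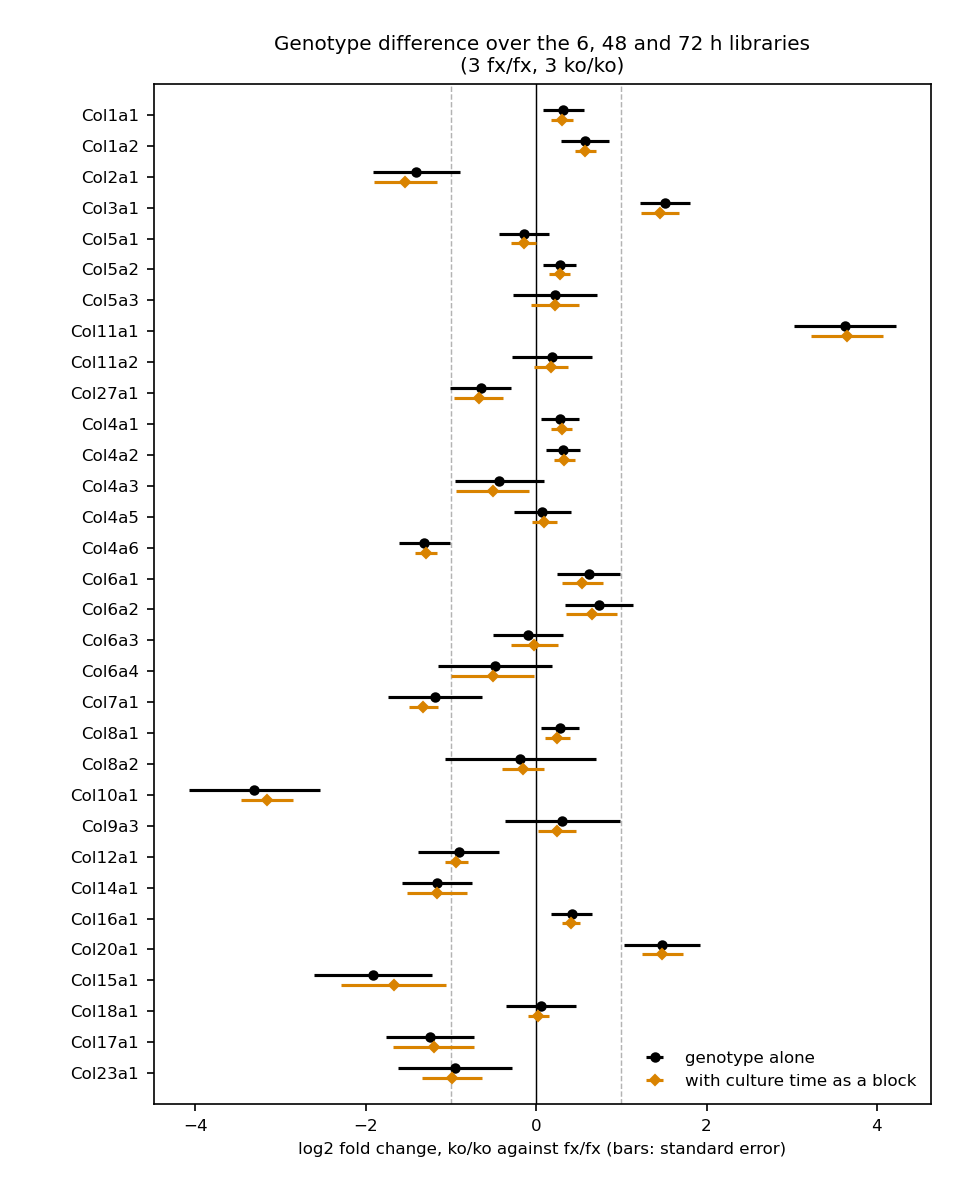
Log2 fold change of the 32 tested collagen genes, ko/ko against fx/fx, over the libraries of 6, 48 and 72 h (n = 3 per genotype), with bars for the standard error. Black circles are from genotype alone and orange diamonds from the fit with culture time as a block. Col11a1, Col3a1 and Col20a1 lie beyond the dashed line at 1 and Col10a1 lies furthest below that at -1, and the values of both fits are close while most standard errors are smaller with the block.

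The fibrillar group had 11 members, of which 10 were tested, 7 with a higher and 3 with a lower level in the ko/ko cells. Col3a1 (type III collagen, mm9 chromosome 1, 45368383 to 45406551, plus strand) was the abundant chain with the largest difference. Its level was 915, 1166, 899 and 1025 CPM in the fx/fx cells at 6, 24, 48 and 72 h, and 3594, 2601 and 1873 CPM in the ko/ko cells at 6, 48 and 72 h. The lowest of these ko/ko libraries was above every fx/fx library, but the library labelled ko/ko at 24 h had 911 CPM and lay within the range of the latter. The means of 2689 ± 864 and 947 ± 68.6 CPM (SD, n = 3) gave a log2 fold change of 1.51 ± 0.30 (SE), with an adjusted p of 0.0534 in edgeR's test and of 0.00423 with the block. Relative to Col1a1, its level per length was 0.200, 0.267, 0.242 and 0.268 in the fx/fx cells and 0.595, 0.619 and 0.380 in the ko/ko cells at 6, 48 and 72 h, and 0.226 in the library labelled 24 h.

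Col1a1 and Col1a2, which together build type I collagen, differed less. Col1a1 was at 3584, 3421, 2903 and 2996 CPM in the fx/fx cells at 6, 24, 48 and 72 h and at 4719, 3284 and 3856 CPM in the ko/ko cells at 6, 48 and 72 h. The library labelled ko/ko at 24 h was at 3158 CPM, and its value stands in parentheses for the chains that follow. Col1a2 was at 3412, 2822, 2754 and 2110 CPM and at 4925, 4004 and 3388 CPM (3282 in that labelled 24 h). At each of 6, 48 and 72 h both chains were higher in the ko/ko library, but the ranges of the groups overlapped. The fitted log2 changes came to 0.32 ± 0.24 (adjusted p = 0.639) for Col1a1 and 0.58 ± 0.28 (adjusted p = 0.425) for Col1a2 in edgeR's test. With the block, Col1a2 had an adjusted p of 0.0162 at a log2 fold change of 0.58, under the limit of 1.

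Type V collagen, which is built into type I fibrils and limits their width, showed no call. Col5a1 was at 305, 355, 372 and 514 CPM in the fx/fx cells and at 341, 260 and 491 CPM in the ko/ko cells (283 in that labelled 24 h). Col5a2 was at 1431, 1685, 1348 and 1437 CPM and at 1566, 1594 and 1988 CPM (1430 in that labelled 24 h). Over 6, 48 and 72 h the libraries of the genotypes overlapped for Col5a1 and not for Col5a2. The fitted log2 changes came to -0.14 ± 0.30 for Col5a1, whose sign turned when 1 of 2 libraries was left out, and 0.28 ± 0.19 for Col5a2, with adjusted p of 0.889 and 0.604 in edgeR's test.

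Col11a1, a minor fibril chain best known from cartilage (chromosome 3, 113733458 to 113923636, plus strand), had few reads and was higher in the ko/ko cells. It had 9, 3, 2 and 4 reads in the fx/fx libraries of 6, 24, 48 and 72 h. The ko/ko libraries of 6, 48 and 72 h had 77, 67 and 31 reads, and the one labelled 24 h had 5. The log2 fold change was 3.62 ± 0.60 (adjusted p = 0.0291 in edgeR's test), with means of 1.99 ± 0.639 and 0.158 ± 0.113 CPM (SD, n = 3). This size rests on 2 to 9 reads in the fx/fx libraries: it was 3.23 to 4.30 with 1 library left out, the highest without the fx/fx library of 6 h, and 1.37 with limma on log2 RPKM, where a constant is added to the level. In the fit of all 8 libraries Col11a1 did not pass the filter on low counts. Its partner chain Col11a2 was at 2.49 to 5.49 CPM in the fx/fx and 2.85 to 6.19 CPM in the ko/ko libraries of 6, 48 and 72 h, and the fitted log2 change was 0.18 ± 0.47 (adjusted p = 0.913 in edgeR's test).

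Col2a1, the main fibril chain of cartilage (chromosome 15, 97806033 to 97835155, minus strand), was lower in the ko/ko cells. It had 79, 63, 76 and 80 reads in the fx/fx cells, and 24, 12 and 41 reads in the ko/ko cells of 6, 48 and 72 h. The library labelled ko/ko at 24 h had 66 reads and lay among the fx/fx libraries. The log2 fold change was -1.41 ± 0.51, with an adjusted p of 0.275 in edgeR's test and of 0.0230 with the block. The call at the unadjusted limit was lost without any 1 of the fx/fx libraries or the ko/ko libraries of 6 or 48 h, and without that of 72 h the log2 fold change was -2.08. Col5a3 and Col27a1, minor fibrillar chains, had log2 fold changes of 0.22 ± 0.50 and -0.65 ± 0.36 and passed no limit.

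The sequences upstream of 3 chains from different collagen types are shown to place them side by side. For each gene the 250 bases before the RefSeq start on GRCm38.p6, a later build than the mm9 build of the counts, were read in the direction of transcription, and 35 of the 43 members matched an entry. Each window was searched on both strands for 4 short motifs. The first was TATAAA, the core of the box that places the start of transcription. The next was CCAAT, a common promoter element bound by the factor NF-Y. A GC-rich site that Smad proteins activated by BMP signals can bind was searched as GGCGCC. The site of the AP-1 factors was searched as TGANTCA. Capitals mark the matches, which did not overlap in the windows shown. Col3a1 (chr1:45311288-45311537, plus strand), Col11a1 (chr3:114030290-114030539, plus strand) and Col10a1 (chr10:34389731-34389980, plus strand) are shown as the abundant fibrillar chain called higher and the 2 chains with the furthest log2 fold changes upwards and downwards:
Col3a1: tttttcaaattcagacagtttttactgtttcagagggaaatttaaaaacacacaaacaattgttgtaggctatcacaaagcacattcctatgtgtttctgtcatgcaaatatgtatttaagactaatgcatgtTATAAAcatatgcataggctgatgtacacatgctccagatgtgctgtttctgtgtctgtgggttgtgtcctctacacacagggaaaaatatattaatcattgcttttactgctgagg
Col11a1: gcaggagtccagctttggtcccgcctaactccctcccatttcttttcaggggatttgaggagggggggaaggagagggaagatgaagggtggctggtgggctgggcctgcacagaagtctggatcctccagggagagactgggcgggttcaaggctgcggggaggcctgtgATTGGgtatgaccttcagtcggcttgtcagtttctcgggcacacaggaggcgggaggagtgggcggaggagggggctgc
Col10a1: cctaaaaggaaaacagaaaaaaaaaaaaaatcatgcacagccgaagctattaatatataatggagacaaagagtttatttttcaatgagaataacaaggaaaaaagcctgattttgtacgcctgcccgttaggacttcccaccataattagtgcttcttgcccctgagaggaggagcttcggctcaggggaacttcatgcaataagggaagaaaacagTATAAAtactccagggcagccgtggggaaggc

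Col3a1 and Col10a1 each held 1 TATAAA, which began 117 and 32 bases before the start, and Col11a1 held 1 CCAAT on the opposite strand, 79 bases before it. The windows differed in base composition, with 35.2% G and C in Col3a1, 41.6% in Col10a1 and 62.4% in Col11a1. Over the 38 windows of collagen genes, 13.2% held TATAAA, 34.2% CCAAT, 10.5% GGCGCC and 2.63% TGANTCA. The shares over all 32851 windows of the table were 12.4, 33.8, 9.59 and 6.75%. The motifs were chosen with the expression results known and a match is a description of letters only.

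The basement membrane group had 6 members in 3 pairs, and each pair is transcribed in opposite directions from neighbouring starts. Col4a1 (chromosome 8, 11198423 to 11312826, minus strand) and Col4a2 (11312805 to 11449287, plus strand) start 21 bp apart on mm9 and form the common network of all basement membranes. Col4a1 was at 472, 375, 442 and 303 CPM in the fx/fx cells at 6, 24, 48 and 72 h and at 516, 492.5 and 468 CPM in the ko/ko cells at 6, 48 and 72 h (456 in that labelled 24 h). Col4a2 was at 352, 254, 314 and 243 CPM and at 389.7, 363 and 382 CPM (333 in that labelled 24 h). The 2 chains moved together from library to library, with a ratio of Col4a1 to Col4a2 per length of 1.19 to 1.43. They differed between genotypes by 0.28 ± 0.22 and 0.32 ± 0.20 on the log2 scale (adjusted p = 0.662 and 0.549 in edgeR's test), and the groups did not overlap for Col4a2.

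Col4a5 and Col4a6, on the X chromosome, start 1309 bp apart and differed from each other in their change. Col4a6 (137599946 to 137908619, minus strand) was at 38.6, 37.0, 55.2 and 28.9 CPM in the fx/fx cells, and at 16.5, 19.8 and 13.0 CPM in the ko/ko cells at 6, 48 and 72 h. All 3 of the latter were below every fx/fx library, while the library labelled ko/ko at 24 h was at 38.4 CPM. The log2 fold change was -1.31 ± 0.29, with an adjusted p of 0.0867 in edgeR's test and of 0.000794 with the block. Col4a5 (137909928 to 138123778, plus strand) was at 231, 156, 189 and 108 CPM and at 182, 238 and 135 CPM (235 in that labelled 24 h), with overlapping groups and a fitted log2 change of 0.07 ± 0.33 (adjusted p = 0.955 in edgeR's test). The ratio of Col4a6 to Col4a5 per length was 0.140, 0.199, 0.245 and 0.225 in the fx/fx cells and 0.0764, 0.0700 and 0.0812 in the ko/ko cells of 6, 48 and 72 h. In the library labelled ko/ko at 24 h the ratio was 0.137. The difference between the changes of the 2 chains was not tested.

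The upstream windows of this pair, which lie between the 2 starts (chrX:141475169-141475418, plus strand and chrX:141474077-141474326, minus strand of GRCm38.p6), are printed for comparison:
Col4a5: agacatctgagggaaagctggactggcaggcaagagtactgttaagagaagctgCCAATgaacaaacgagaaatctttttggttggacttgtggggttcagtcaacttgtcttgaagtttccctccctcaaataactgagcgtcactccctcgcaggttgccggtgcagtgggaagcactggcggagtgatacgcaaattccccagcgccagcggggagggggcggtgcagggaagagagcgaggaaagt
Col4a6: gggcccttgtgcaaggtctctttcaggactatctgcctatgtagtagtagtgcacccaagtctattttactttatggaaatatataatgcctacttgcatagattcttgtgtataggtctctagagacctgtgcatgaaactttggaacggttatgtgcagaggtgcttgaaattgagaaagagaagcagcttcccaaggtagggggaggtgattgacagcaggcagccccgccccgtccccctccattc
The Col4a5 window held 1 CCAAT, 196 bases before the start, and 54.0% G and C. The Col4a6 window held none of the letters searched and 47.6% G and C.

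Col4a3 and Col4a4, whose starts on chromosome 1 lie 72 bp apart and whose chains join Col4a5 in specialised basement membranes such as that of the kidney filter, had few reads. Col4a3 had 28, 23, 31 and 32 reads in the fx/fx cells and 20, 36 and 7 reads in the ko/ko cells (23 in that labelled 24 h), and the fitted log2 change was -0.43 ± 0.52 (adjusted p = 0.793 in edgeR's test). Col4a4 had 1 to 8 reads per library and was not tested.

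Of the 6 type VI members, the beaded filament chains Col6a1, Col6a2 and Col6a3 were abundant and did not pass the test. Col6a1 was at 520.2, 532, 808 and 503 CPM in the fx/fx cells at 6, 24, 48 and 72 h and at 1310.4, 922 and 553 CPM in the ko/ko cells at 6, 48 and 72 h (493 in that labelled 24 h). Col6a2 was at 168, 197, 305 and 189 CPM and at 547, 332 and 213 CPM (154 in that labelled 24 h). Both were highest in the ko/ko library of 6 h, the groups overlapped, and the fitted log2 changes came to 0.61 ± 0.37 and 0.73 ± 0.40 (adjusted p = 0.527 and 0.483 in edgeR's test). Col6a3 was at 150.5, 230.1, 391 and 391 CPM and at 255, 209 and 418 CPM (153 in that labelled 24 h), and its log2 fold change of -0.10 ± 0.41 turned its sign when 1 of 4 libraries was left out. The ratio of Col6a1 to Col6a2 per length was 4.54 to 6.07, whereas that of Col6a3 to Col6a1 ranged from 0.0715 to 0.286. Col6a4 had 2 to 16 reads and was not called, Col6a5 had 0 to 6 reads and Col6a6 0 or 1.

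Col10a1 and Col7a1 were lower in the ko/ko cells. Col10a1, the network collagen of hypertrophic cartilage (chromosome 10, 34109787 to 34116891, plus strand), had 140, 278, 826 and 258 reads in the fx/fx cells at 6, 24, 48 and 72 h. It had 15, 53 and 41 reads in the ko/ko cells at 6, 48 and 72 h and 142 in the library labelled 24 h. The ko/ko libraries other than that of 24 h were below all fx/fx libraries, with means of 1.30 ± 0.701 against 12.8 ± 11.3 CPM (SD, n = 3). The log2 fold change was -3.31 ± 0.77, with an adjusted p of 0.0954 in edgeR's test and of 0.000747 with the block. Its size rests in part on the fx/fx library of 48 h, without which it was -2.33. Its relatives of type VIII, which form networks around vessels and beneath corneal endothelium, did not pass: Col8a1 had a log2 fold change of 0.28 ± 0.22 and Col8a2 one of -0.18 ± 0.88.

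Col7a1, the anchoring fibril chain that ties epithelial basement membranes to the tissue beneath (chromosome 9, 108855631 to 108886920, plus strand), was at 130.3, 75.9, 85.9 and 51.6 CPM in the fx/fx cells. It was at 62.7, 38.8 and 14.8 CPM in the ko/ko cells at 6, 48 and 72 h, and at 126 CPM in the library labelled 24 h. At each of these 3 times the ko/ko library was lower, but the groups overlapped because both lines were highest at 6 h. The log2 fold change was -1.19 ± 0.55 with an adjusted p of 0.405 in edgeR's test, and -1.32 ± 0.17 with an adjusted p of 0.00227 with the block.

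Among the 9 fibril-associated members, 5 were tested. Col12a1 and Col16a1 were the most abundant of them per length, with means of 42.95 and 40.72 RPKM over the 6 libraries. In the ko/ko libraries of 6, 48 and 72 h Col16a1 was the higher, with means of 46.54 against 30.01 RPKM. Col12a1 bridges fibrils in dense connective tissue and was at 447, 936, 974 and 1133 CPM in the fx/fx cells at 6, 24, 48 and 72 h. It was at 213, 620.0 and 538 CPM in the ko/ko cells at 6, 48 and 72 h, lower at each time, and at 457 CPM in the library labelled 24 h. The groups overlapped, since the ko/ko libraries of 48 and 72 h were above the fx/fx library of 6 h. The log2 fold change of Col12a1 was -0.91 ± 0.48 (adjusted p = 0.464 in edgeR's test), and with the block -0.94 ± 0.14 (adjusted p = 0.0034), under the fold limit. Col20a1, a low-level fibril-associated chain (chromosome 2, 180721240 to 180752245, plus strand), had 51, 16, 29 and 23 reads in the fx/fx cells, and 130, 65 and 66 reads in the ko/ko cells at 6, 48 and 72 h. All 3 were above the fx/fx libraries, the library labelled 24 h had 39 reads, and the log2 fold change was 1.48 ± 0.44, with an adjusted p of 0.191 in edgeR's test and of 0.00598 with the block.

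Col14a1, which binds fibrils and is found with type I collagen (chromosome 15, 55139305 to 55352358, plus strand), had 25, 25, 17 and 23 reads in the fx/fx cells and 11, 7 and 8 in the ko/ko cells at 6, 48 and 72 h. The library labelled ko/ko at 24 h had 24 reads. Its log2 fold change was -1.17 ± 0.41, with an adjusted p of 0.261 in edgeR's test and of 0.0508 with the block. The call at the unadjusted limit was lost without the fx/fx library of 6 or 72 h or the ko/ko library of 48 h, with DESeq2, with limma on log2 RPKM and over all 8 libraries. Col16a1 was at 185 to 269.5 CPM in the fx/fx and 253 to 374 CPM in the ko/ko libraries of 6, 48 and 72 h, and the fitted log2 change was 0.42 ± 0.24 (adjusted p = 0.507 in edgeR's test, 0.0268 with the block). Col9a3, of cartilage fibrils, had a log2 fold change of 0.30 ± 0.68 and passed no limit, and 6.07% of its exon length overlaps an exon on the opposite strand.

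The multiplexins are Col15a1 and Col18a1, and the latter is the source of endostatin. Col15a1 (chromosome 4, 47221033 to 47326039, plus strand) had 23, 63, 131 and 48 reads in the fx/fx cells at 6, 24, 48 and 72 h and 20, 9 and 18 reads in the ko/ko cells at 6, 48 and 72 h (24 in that labelled 24 h). Its difference rested mainly on the fx/fx library of 48 h: the log2 fold change was -1.91 ± 0.69 (adjusted p = 0.272 in edgeR's test) and -1.05 without that library, and the groups overlapped. The call at the unadjusted limit was lost without it, without the ko/ko library of 6 or 48 h and with limma on log2 RPKM. Col18a1 was at 28.3 to 62.3 CPM and 26.9 to 64.2 CPM over the libraries of 6, 48 and 72 h, and the fitted log2 change was 0.05 ± 0.41. Of the 4 transmembrane members, Col17a1, a chain of the hemidesmosomes of epithelia (chromosome 19, 47720834 to 47766584, minus strand), had 12, 18, 28 and 25 reads and 11, 10 and 4 reads (10 in that labelled 24 h). Its log2 fold change was -1.25 ± 0.52 (adjusted p = 0.340 in edgeR's test), and the call at the unadjusted limit was kept when the fx/fx library of 6 h was left out and lost without any other 1 library, with DESeq2 and with limma on log2 CPM or log2 RPKM. Col23a1 had a log2 fold change of -0.96 ± 0.67 and passed no limit in this fit or with the block over the 6 libraries. It passed the unadjusted limit only with the block over 7 libraries, a setting chosen after seeing the data, at a log2 fold change of -1.0002.

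**Figure D4:**
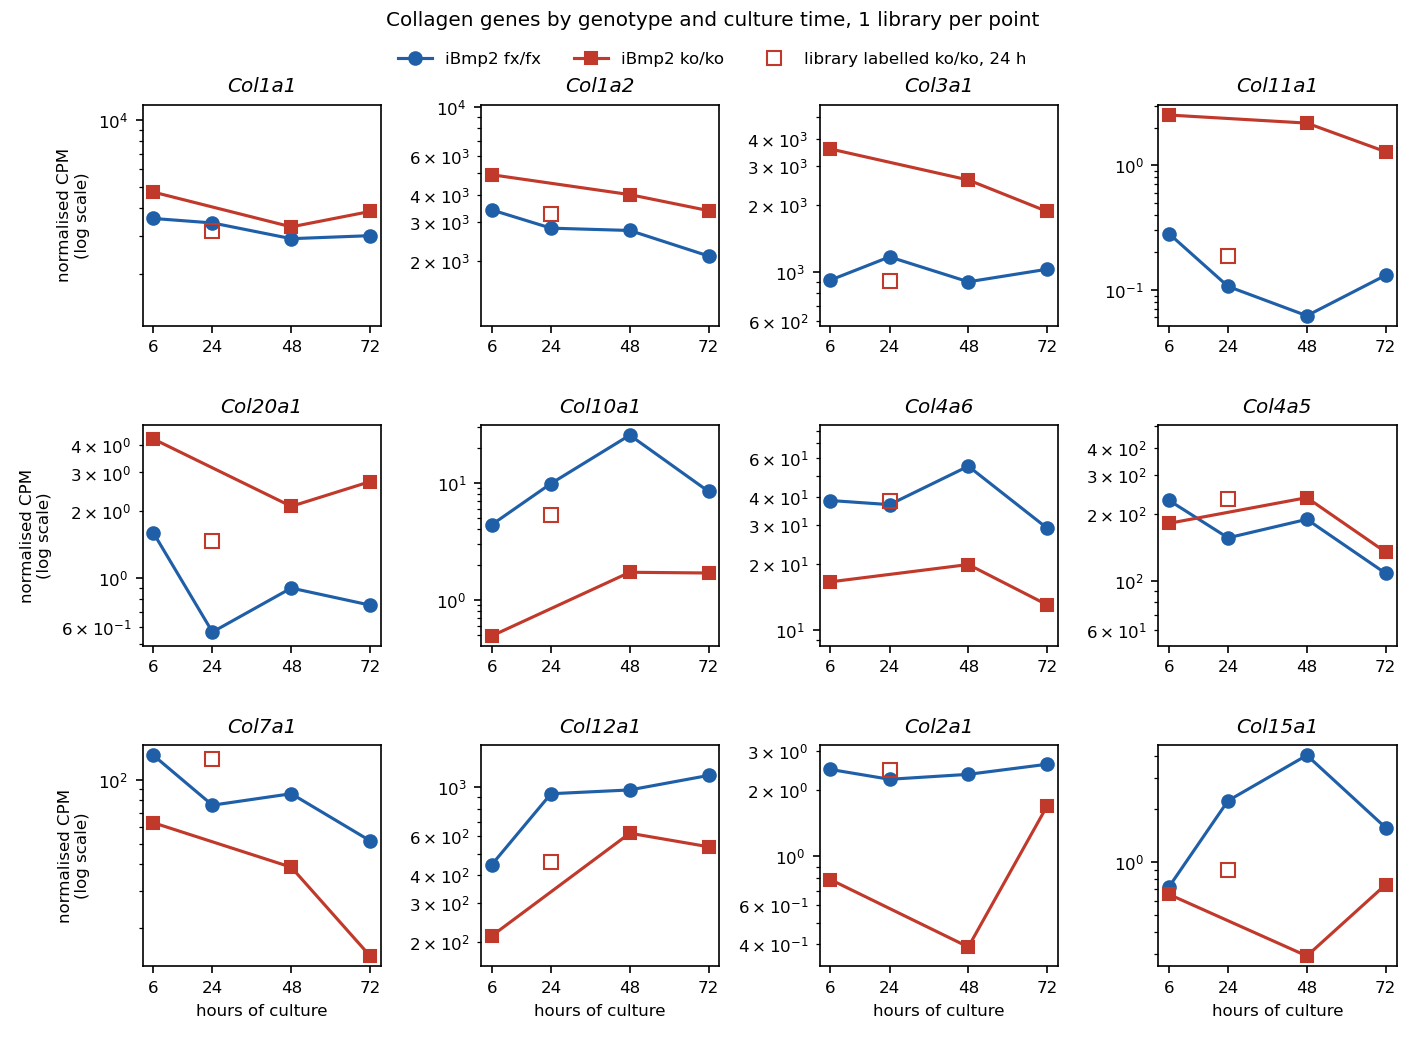
Normalised CPM of 12 collagen genes on a log axis against hours of culture, with 1 library per point, circles for fx/fx, filled squares for ko/ko and an open square for the library labelled ko/ko at 24 h. Col3a1 (1873 to 3594 CPM against 899 to 1166 CPM) and Col11a1 run higher and Col10a1 and Col4a6 lower in the filled squares, while the open square lies near the circles in these panels.

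To compare culture times, a slope on the log2 of hours shared by both genotypes was fitted over the same 6 libraries. Col12a1 and Col10a1 had the positive slopes and Col11a2, Col7a1, Col20a1, Col8a2, Col9a3 and Col1a2 the negative slopes with an unadjusted p under 0.05, and 0 members passed an adjusted p of 0.05. These 8 were 25.0% of the members tested, against 21.1% of all genes (10.9% rising and 10.2% falling), of which 0 passed the adjusted limit, so that the share was near the background. limma on log2 CPM also gave 8 members, against 22.2% of all genes, with 0 members and 0 genes past the adjusted limit. Col12a1 had a slope of 0.39 ± 0.07 per log2 of hours (unadjusted p = 0.000929, adjusted p = 0.162) and Col11a2 one of -0.33 ± 0.07 (0.00351 and 0.178) in edgeR's test. Per log2 of hours, Col7a1 had a slope of -0.38 ± 0.11, Col8a2 of -0.56 ± 0.21 and Col10a1 of 0.53 ± 0.19. Col3a1 had a slope of -0.11 ± 0.08 and Col1a1 of -0.11 ± 0.06, neither under p of 0.05. The count moved with that over all genes when 1 library was left out. It was 5 without the fx/fx library of 6 h (10.7% of all genes) or that of 72 h (9.51%). Without the ko/ko library of 6 h it was 2, Col12a1 and Col6a3 (4.45% of all genes), and without that of 48 h it was 12 (32.4%), with Col12a1 past the adjusted limit as were 1.47% of all genes.

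Whether the slopes differed between the genotypes was tested by an interaction. By edgeR's test 0 members passed at an adjusted p of 0.05 and 0 at an unadjusted p under 0.05, against 0.480% of all genes at the latter, and by limma the counts were 0 and 1, the latter Col6a2. Its interaction was -0.49 ± 0.19 per log2 of hours (unadjusted p = 0.0525 in edgeR's test). The design leaves few degrees of freedom for this test, and a p that missed the limit does not show equal slopes.

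The library labelled ko/ko at 24 h was compared with both lines. Over the 22 collagen genes with at least 100 counts on average, its log2 ratio to the fx/fx library of 6 h had an SD of 0.0931, the smallest of the 28 pairs. The SD was 1.02, 0.792 and 1.15 against the ko/ko libraries of 6, 48 and 72 h. Of the 32 tested members, 20 were nearer in it, on the scale of log2(CPM + 0.5), to the mean of the fx/fx libraries and 12 to that of the ko/ko libraries, and in the fx/fx library of 24 h these numbers were 24 and 8. Of the 9 members past the unadjusted limit 7 were nearer to the fx/fx mean in it, Col15a1 and Col17a1 being the others, and all 9 were in the fx/fx library of 24 h. The sign of the difference at 24 h was opposite to the other times for Col2a1, Col3a1, Col4a6 and Col14a1. Its counts were not identical to those of the fx/fx library of 6 h, and the chi-square per gene of 5.7 between them was above sampling noise, so both were kept as separate libraries. Its genotype label could not be checked from Bmp2 and may not hold, so its values are given by label only.

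**Figure D5:**
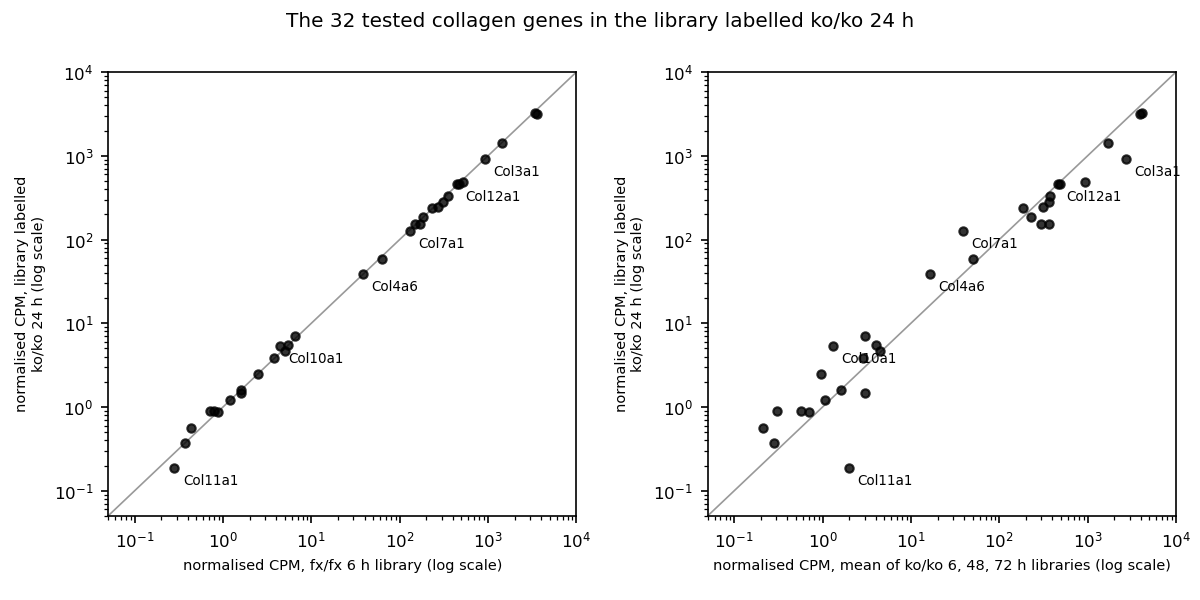
Normalised CPM of the 32 tested collagen genes in the library labelled ko/ko at 24 h (vertical axes) against the fx/fx library of 6 h (left) and against the mean of the ko/ko libraries of 6, 48 and 72 h (right), all on log axes with the line of equal values. Points lie closer to the line on the left, where the SD of the log2 ratio over 22 genes is 0.0931.

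Collagen chains need enzymes that modify, fold, cut and cross-link them, and 39 such genes and collagen receptors were examined beside the members. Of the 35 tested, 21 were higher and 14 lower in the ko/ko cells, with a median log2 fold change of 0.11 against 0.03 over all genes. At the unadjusted limit 4 (11.4%) were called, against 7.35% of all genes, and 2 (5.71%) passed the adjusted limit in edgeR's test, against 2.19%. Pcolce2, an enhancer of the removal of the C-terminal propeptide of procollagen, was at 119, 101, 149.9 and 144 CPM in the fx/fx cells and at 20.5, 12.9 and 35.8 CPM in the ko/ko cells at 6, 48 and 72 h, without overlap. The library labelled ko/ko at 24 h was at 112 CPM. The log2 fold change of Pcolce2 was -2.60 ± 0.36 (adjusted p = 0.0178 in edgeR's test). Pcolce, also on the list and more abundant, went the other way. It was at 641, 596, 603 and 618 CPM in the fx/fx cells and at 1275, 1022 and 908 CPM in the ko/ko cells (606 in that labelled 24 h). Without overlap over 6, 48 and 72 h, its log2 fold change was 0.78 ± 0.21, under the limit of 1 (adjusted p = 0.1505 in edgeR's test, 0.00792 with the block).

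Adamts3 and Adamts14 encode proteases that remove the N-terminal propeptide of fibrillar procollagens. Adamts3 had 33, 32, 47 and 36 reads in the fx/fx cells at 6, 24, 48 and 72 h and 2, 3 and 0 reads in the ko/ko cells at 6, 48 and 72 h (20 in that labelled 24 h), with an adjusted p of 0.0243 in edgeR's test, and the size of its change is not given because the ko/ko libraries of 6, 48 and 72 h were at or under 3 counts. Adamts14 was at 14.8, 10.8, 10.3 and 11.4 CPM and at 29.5, 24.7 and 23.0 CPM (13.7 in that labelled 24 h), and the fitted log2 change was 1.08 ± 0.23 (adjusted p = 0.0754 in edgeR's test, 0.0022 with the block). P4ha3, a prolyl 4-hydroxylase subunit that stabilises the helix, was at 55.3, 73.9, 96.9 and 107 CPM and at 19.6, 21.3 and 56.8 CPM (53.8 in that labelled 24 h), and the fitted log2 change was -1.43 ± 0.45 (adjusted p = 0.213 in edgeR's test, 0.00278 with the block). The groups did not overlap for Adamts3 and Adamts14 over 6, 48 and 72 h, and they overlapped for P4ha3. Over all 8 libraries 0 of the list passed the adjusted limit and 3 the unadjusted one, Adamts3, P4ha3 and Pcolce2, against 0% and 3.55% of all genes. Tll1, a protease of the family that removes the C-terminal propeptide, had 22, 12, 19 and 28 reads in the fx/fx cells and 24, 40 and 84 reads in the ko/ko cells (13 in that labelled 24 h). Its log2 fold change was 1.30 ± 0.57 (adjusted p = 0.377 in edgeR's test), and with the block it was 1.14 ± 0.36 and past the unadjusted limit (adjusted p = 0.0585 in edgeR's test). Bmp1 of the list had a log2 fold change of 0.65 ± 0.21, under the limit of 1 (adjusted p = 0.2355 in edgeR's test, 0.00601 with the block). The other tested genes of the list, like Pcolce and Bmp1, had changes under the fold limit and were not called in either fit. The adjusted count was 0 without the fx/fx library of 6 or 48 h (0.660 and 0.105% of all genes) or the ko/ko library of 6 or 48 h (0.638 and 0.0676%). It was 1, Pcolce2, without the fx/fx library of 72 h (1.19%), and 4 without the ko/ko library of 72 h (2.83%), with P4ha3 and Plod2 added.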

How the data were processed

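Total RNA libraries of both lines were sequenced on an Illumina HiSeq instrument, and per the submitters' processing notes and the study's methods the authors aligned the reads with TopHat2 2.0.8b to mm9 and counted them with HTSeq. The authors deposited raw read counts per gene symbol, without normalization, in 1 table per library. The annotation and strand setting of the counting are not given in the sources used here, so reads of overlapping antisense genes cannot be told apart. The summary rows of HTSeq were left out, and alignments it set aside as not unique were 41.3 to 49.6% of the alignments. The lncRNA tables held no collagen symbol and were not used. The library labels describe single-end reads and the study's methods paired reads.

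Counts were tested in R 4.3.3 with edgeR 4.0.16 (TMM normalization, its filter on low counts with at least 10 counts and 15 in total, quasi-likelihood test for genotype, Benjamini-Hochberg adjustment over all genes tested). A gene passed the unadjusted limit when its log2 fold change exceeded 1 in size and its unadjusted p was under 0.05. It passed the adjusted limit at a size of 1 or more and an adjusted p up to 0.05. Time was fitted as a slope on the log2 of hours. The standard errors of edgeR's fits were derived as the size of the estimate over the square root of the test's F statistic. They are approximate. CPM used library sizes and TMM factors of all 8 libraries, and RPKM divided CPM by the exon union of GENCODE M1 on mm9. Deviations from the genotype means were shared by the libraries of a time, with correlations across genes of 0.735 at 6 h, 0.572 at 48 h and 0.866 at 72 h. Between different times the mean was -0.343. The deviations of a genotype sum to 0 over its libraries, so that this negative mean follows from the others and is no separate contrast. The pairing comes from the culture time in the labels, and the fit with time as a block is given for the members and processing genes where it changed a call.

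Alternatives were all 8 libraries, the block, DESeq2 1.42.0, limma 3.58.1 on log2 CPM (offset 0.5) and log2 RPKM (offset 0.1), library sizes only, no filter, a minimum of 10 counts in each library, time in hours, the longest transcript, and leaving out each library. The 7 libraries without that labelled ko/ko at 24 h, and leaving out libraries for the time slope, were chosen after seeing the data. The members, the list of processing genes, the markers, the motifs and the named genes (11 main chains, members past the unadjusted limit and the type IV pairs) were chosen with earlier results of these data known. Col7a1, Col8a1, Col8a2, Col9a3, Col11a2, Col16a1, Col18a1, Col23a1, Col5a3, Col27a1 and the processing genes Tll1, Pcolce, Bmp1 and Mia3 were named in addition once their values were known. Tests were checked on simulated counts. Figures were drawn with Python 3.11.15 and matplotlib 3.10.9.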

Additional observations from a re-analysis of the deposited data

Results flagged for a closer look

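In sets of 4 libraries of 1 genotype, 3 of the 64 sets of tested collagen genes had 1 library far from the others, with a gap to the nearest library over the whole range, both taken on the scale of log2(CPM + 0.5), above 0.829. Chance flags about 1 in 20 such sets. Col6a1 in the fx/fx library of 48 h had a ratio of 0.882, at 808 CPM against 503 to 532 CPM in the other fx/fx libraries. Col11a2 in the fx/fx library of 6 h had a ratio of 0.888, at 5.49 CPM against 2.49 to 2.73 CPM. Col18a1 in the ko/ko library of 72 h had a ratio of 0.892, at 26.9 CPM against 58.5 to 64.2 CPM.

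For 4 of the genes past the unadjusted limit the difference at 24 h had the opposite sign to that at all of 6, 48 and 72 h. On the scale of log2(CPM + 0.5), which understates the change of low genes such as Col2a1 and Col14a1, the difference of the library labelled ko/ko from the fx/fx library was -0.356 at 24 h for Col3a1 and 0.869 to 1.97 at the other times. For Col2a1 it was 0.121 at 24 h and -1.68 to -0.506 at the other times. For Col4a6 it was 0.0528 and -1.46 to -1.12, and for Col14a1 it was 0.0136 and -0.592 to -0.498. With 1 library per genotype at 24 h, this difference between the times was not tested.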

How the results depend on the processing

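The number of collagen genes past the adjusted limit for genotype was 1 and depended on the setting. With the share of all genes called in parentheses, it was 0 over all 8 libraries (0%), 7 with the replicate block of culture time over 6 libraries (8.45%) and 0 with that block over 8 (0.253%), 5 with DESeq2 (5.02%), 0 with limma on log2 RPKM (2.11%), 2 without a filter (1.84%), 0 with at least 10 counts in every library (1.18%), and 0 to 2 with 1 library left out (0.0676 to 2.83%). With 7 libraries it was 4 (3.12%), and 8 with the block (8.74%), settings chosen after seeing the data. At the unadjusted limit the count of 9 became 5 over all 8 libraries (3.55%), 5 with at least 10 counts in every library (5.49%), and 5 to 8 with 1 library left out (5.87 to 10%). For the processing genes the adjusted count of 2 became, beside the same shares, 0 over all 8 libraries, 4 with the block over 6 and 0 over 8 libraries, 4 with DESeq2, 1 with at least 10 counts in every library, and 0 to 4 with 1 library left out. For culture time the adjusted count of 0 became 0 to 1 (0 to 1.47%) and the unadjusted count of 8 became 2 to 12 with 1 library left out (4.45 to 32.4%). For the interaction the unadjusted count of 0 became 1 with limma on log2 CPM (0.480%) and 1 with 7 libraries (1.01%). Col11a1 had a log2 fold change larger in size than that of Col10a1 with all 6 libraries (3.62 against -3.31), and smaller without the fx/fx library of 72 h, without the ko/ko library of 48 h and with limma on log2 RPKM (1.37 against -2.79). The sign of Col5a1 turned in 2 fits with 1 library left out (0.048 and 0.099, over a range of -0.41 to 0.099) and that of Col6a3 in 4 (0.0090, 0.087, 0.093 and 0.11, over a range of -0.44 to 0.11). The cause of these differences was not tested, apart from the smaller number of genes or libraries that a filter or omission itself brings. Low counts, as those of Col11a1 in the fx/fx cells, Col14a1 and Col17a1, limit the precision of their values.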
